A study of Mus musculus with 13 samples.

Results

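The comparison described here sets cells that received wild-type Tet2 against cells that received a stalling mutant of it, Tet2-E, at day 5 of reprogramming. Its members are 7 of the 13 RNA-seq libraries of the study, chosen by their labels: Tet2-WT replicates 1, 2 and 250 (n = 3) and Tet2-E replicates 1, 2, 100 and 250 (n = 4). All 7 come from mouse embryonic fibroblasts (MEFs) of embryonic day 12.5, strain background V6.5 129XBI/6, that carry no intact Tet2 (Tet2-/-) and hold OKSM and rtTA, so that doxycycline switches on the reprogramming factors Pou5f1, Klf4, Sox2 and Myc. Both Tet2 genes came on a pMXs retrovirus, which inserts into the genome and is not under the control of the endogenous Tet2 locus; the genotype field of the labels reads T2D-WT and T2D-E. After infection the cells were grown on Mito-C-treated feeder MEFs, in medium with doxycycline (2 µg/mL), LIF (1000 U/mL) and a pair of kinase inhibitors, CHIR99021 at 3 µM and PD0325901, which blocks the ERK pathway, at 1 µM, and kept in 5% oxygen. The labels give isolation as none and name no removal of feeders, so a library is read as the whole culture. Cells with the empty pMXs vector at day 5 (n = 3) and untreated MEFs (n = 3) give the levels beside which the 7 libraries are read. The genotype field reads T2D-vector for the former and MEF-control for the latter, with no more on the Tet2 alleles of the untreated cells.

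Tet2 is a dioxygenase that oxidises the methyl group of 5-methylcytosine in DNA. The first product is 5-hydroxymethylcytosine, and further rounds give 5-formylcytosine and 5-carboxylcytosine, which the glycosylase Tdg can excise so that an unmodified cytosine is put back. A stalling mutant halts after the first product, so wild-type Tet2 against such a mutant asks which transcripts differ when the higher oxidised bases can be made. In MEFs driven towards pluripotency the fibroblast program is lost early, epithelial genes come on, and the full pluripotency network follows late.

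Total counts ran from 20261396 to 25720579 with Tet2-WT and from 14052646 to 26265382 with Tet2-E. Tet2 was at 1243, 1176 and 1233 CPM (counts scaled with TMM to a common library size) in Tet2-WT replicates 1, 2 and 250 and at 1356, 1403, 581 and 1299 CPM in Tet2-E replicates 1, 2, 100 and 250. With pMXs it was at 58.8, 39.1 and 41.1 CPM. Tet2-E replicate 100 had the lowest level of the 7, and the groups overlapped (edgeR quasi-likelihood test, log2 fold change 0.07 ± 0.24 (SE), adjusted p = 0.964). Counts do not separate vector transcripts from those of the disrupted locus or the feeders. Among the 7 libraries the first principal component (37.6% of the variance) put the Tet2-WT libraries at 7.92 to 27.8 and the Tet2-E libraries at -22.8 to -3.71. The second (24.3%) put replicates 1 and 2 above replicates 100 and 250 within each group. The defining fibroblast markers Col1a1, Col1a2, Col3a1, Thy1, Pdgfrb, Vim, Prrx1 and Twist2 were present in all 7 libraries, Vim at 5718 to 7175 CPM and Twist2 at 6.54 to 8.30 CPM.

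Of 14607 genes tested, 675 (4.62%) differed between Tet2-WT and Tet2-E at an adjusted p under 0.05 (edgeR, Benjamini-Hochberg), and these are the genes said below to be higher or lower. With Tet2-WT 355 were higher (2.43%) and 320 lower (2.19%). The median difference was 0.66 on the log2 scale among the higher genes and -0.69 among the lower ones, against -0.01 over all genes tested. A change of at least 2-fold was seen in 185 of them (1.27%), 116 higher (0.794%) and 69 lower (0.472%). The libraries of the groups did not overlap for 339 of the 355 and 315 of the 320, and for 15% of all genes tested (7.48% higher, 7.54% lower). With the replicate number as a block 459 genes were higher and 506 lower. Without Tet2-WT replicate 1 the count was 335 (327 of them among the 675) and without Tet2-WT replicate 2 it was 339 (332 of them among the 675).

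**Figure D1:**
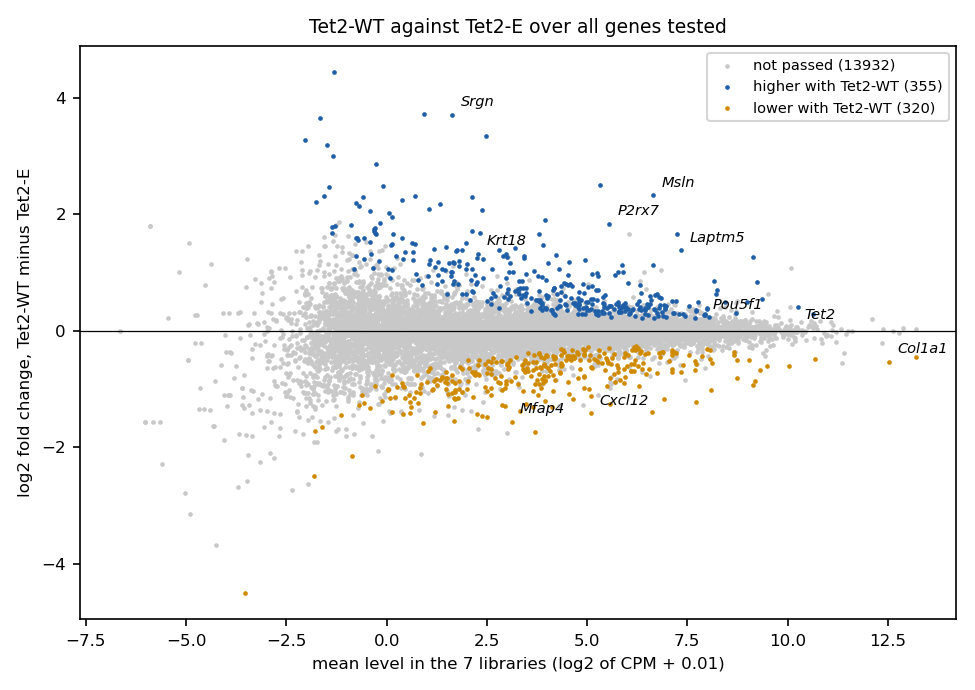
Log2 fold change of Tet2-WT over Tet2-E (vertical axis) against the mean level in the 7 libraries (horizontal axis, log2 of CPM + 0.01), 1 point per gene tested; 355 genes in blue were higher, 320 in orange lower and 13932 in grey did not pass. The changes of more than 2 on the log2 scale were mostly upward, while Col1a1 lies among the genes with the highest counts. Many of these upward changes belong to genes with a mean under 1 CPM with Tet2-E. Genes this low can pass the filter on low counts through the Tet2-WT libraries alone, which favours those high there.

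The gene with the smallest p was P2rx7, which encodes an ion channel opened by extracellular ATP. It was at 86.4, 78.8 and 73.1 CPM with Tet2-WT, 23.3, 21.6, 21.5 and 22.2 CPM with Tet2-E and 16.3, 18.004 and 21.2 CPM with pMXs. All Tet2-WT libraries lay above all others (edgeR, log2 fold change 1.84 ± 0.10 (SE), adjusted p = 1.04e-07). Mst1, the gene of macrophage-stimulating protein, a ligand of the Ron receptor, was at 26.3, 27.9 and 24.9 CPM with Tet2-WT and 7.71, 5.81, 6.53 and 8.099 CPM with Tet2-E (edgeR, log2 fold change 1.90 ± 0.11 (SE), adjusted p = 1.46e-07). Avil, which encodes an actin-binding protein of the gelsolin family, was at 262, 246 and 241 CPM with Tet2-WT, 80.8, 65.3, 75.1 and 92.96 CPM with Tet2-E and 60.7, 61.5 and 61.1 CPM with pMXs (edgeR, log2 fold change 1.67 ± 0.11 (SE), adjusted p = 4.67e-07). For Mst1 and Avil too, the lowest Tet2-WT library lay above the highest Tet2-E library. In untreated MEFs these genes were low, P2rx7 at 2.46, 3.48 and 3.41 CPM, Mst1 at 0.416, 0.353 and 0.438 CPM and Avil at 2.96, 2.62 and 1.75 CPM.

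Secreted factors and their carriers stood among the other leading higher genes. Srgn, the core protein of the granule proteoglycan serglycin, was at 0.315, 1.04, 0.261 and 0.515 CPM with Tet2-E and 6.71, 6.75 and 6.07 CPM with Tet2-WT (edgeR, log2 fold change 3.71 ± 0.31 (SE), adjusted p = 1.04e-05). Outside Tet2-WT its group means were 0.532 CPM or less. A gene this low can pass the filter on low counts through the libraries where it is high, so the p-value of Srgn is a description only. Epgn, a ligand of the epidermal growth factor receptor, was at 1.36, 1.73, 0.747 and 0.847 CPM with Tet2-E and 16.6, 12.05 and 5.303 CPM with Tet2-WT (3.35 ± 0.35, adjusted p = 7.28e-05). Bmp6, a bone morphogenetic protein, was at 16.3, 13.9, 16.2 and 14.5 CPM with Tet2-E and 37.5, 30.1 and 36.1 CPM with Tet2-WT (1.18 ± 0.10, adjusted p = 1.04e-05). In each of the 3 genes the groups did not overlap, and for Epgn the Tet2-WT libraries differed most among themselves.

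Enzymes and transporters were among the rest. Aldh3a1, an aldehyde dehydrogenase, was at 408, 383, 298 and 305 CPM with Tet2-E and 925, 844 and 746 CPM with Tet2-WT (edgeR, log2 fold change 1.27 ± 0.12 (SE), adjusted p = 2.18e-05). Adh7, an alcohol dehydrogenase that also acts on retinol, was at 39.1, 36.1, 40.5 and 35.3 CPM with Tet2-E and 76.4, 70.6 and 80.9 CPM with Tet2-WT (1.01 ± 0.09, adjusted p = 1.04e-05). Both enzymes thus lay above the full range of Tet2-E in every Tet2-WT library. Chst3, a sulfotransferase of chondroitin chains, was higher by 1.13 ± 0.08 and Slc27a1, a transporter of long-chain fatty acids, by 1.14 ± 0.10. Slc27a1 was at 38.4, 39.2, 34.4 and 41.8 CPM with Tet2-E, 34.996, 35.8 and 38.6 CPM with pMXs and 44.5, 30.4 and 39.3 CPM in untreated MEFs, so only the Tet2-WT libraries, at 82.04, 87.2 and 84.4 CPM, stood apart. Laptm5, a lysosomal membrane protein of blood cells, and Mroh6 complete the 12 leading higher genes, at 1.39 ± 0.13 and 1.66 ± 0.15.

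The leading lower genes included several of secreted, adhesive and membrane proteins. Cpxm1, of the carboxypeptidase family, was at 8.58, 8.09 and 7.98 CPM with Tet2-WT, 15.1, 19.03, 16.7 and 19.9 CPM with Tet2-E and 21.4, 22.1 and 23.95 CPM with pMXs (edgeR, log2 fold change -1.11 ± 0.09 (SE), adjusted p = 1.04e-05). Mfap4, a protein of elastic microfibrils, was at 4.32, 4.06 and 3.92 CPM with Tet2-WT, 14.9, 11.4, 10.4 and 11.6 CPM with Tet2-E and 12.8, 12.4 and 13.6 CPM with pMXs (edgeR, log2 fold change -1.56 ± 0.14 (SE), adjusted p = 1.04e-05). The Tet2-E libraries of Mfap4 lay around the pMXs libraries, and all 3 Tet2-WT libraries lay below both. Cxcl12, the chemokine ligand of Cxcr4, was at 14.5, 16.1 and 21.5 CPM with Tet2-WT, 37.4, 55.3, 50.8 and 41.9 CPM with Tet2-E and 96.1, 90.7 and 89.4 CPM with pMXs (edgeR, log2 fold change -1.41 ± 0.15 (SE), adjusted p = 8.56e-05). Here the Tet2-E libraries lay between the other groups with no overlap on either side. In a whole culture, fewer cells of a type and less RNA per cell cannot be told apart, here and for the gene groups below.

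Adhesion and guidance genes followed. Cdh3, the placental cadherin, was at 4.22, 4.66 and 5.02 CPM with Tet2-WT and 9.12, 10.03, 9.56 and 8.98 CPM with Tet2-E (edgeR, log2 fold change -1.02 ± 0.10 (SE), adjusted p = 4.42e-05). Alcam, an adhesion molecule of the immunoglobulin family, was at 6.29, 6.34 and 5.83 CPM with Tet2-WT and 13.2, 18.7, 15.8 and 11.8 CPM with Tet2-E (-1.26 ± 0.16, adjusted p = 0.000339). Unc5c, a netrin receptor, was at 2.96, 2.39 and 1.91 CPM with Tet2-WT and 6.76, 7.06, 6.64 and 5.67 CPM with Tet2-E (-1.42 ± 0.18, adjusted p = 0.000227). In all 3 the groups did not overlap. The receptor phosphatase gene Ptprd had a log2 fold change of -1.08 ± 0.14, the glutamate transporter gene Slc1a6 one of -1.45 ± 0.16, the potassium channel gene Kcnk2 one of -1.48 ± 0.22, and Pamr1 one of -1.28 ± 0.15. Rspo2, a secreted enhancer of Wnt signalling, had the largest change of the 12, -1.74 ± 0.21, at 5.07, 4.51 and 7.36 CPM with Tet2-WT against 13.1, 17.5, 24.003 and 19.4 CPM with Tet2-E. The remaining leading lower gene, Col11a1, is a collagen.

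The calls of all 24 leading genes held in every alternative setting with more than 1 library in each group, those that leave out 1 library included. Contrasts within replicates 1 and 2 and within replicates 100 and 250 come from a fit of all 13 libraries with a mean per group and set of numbers. Within 100 and 250 Tet2-WT has 1 library, so only the difference is read there. For other genes the text says where leaving out 1 library ended a call, with the adjusted p in parentheses. In all 157 such cases, over 46 genes, the direction stayed and the log2 fold change was 0.692 to 1.08 times that of the full fit (median 0.931). The libraries that remain are among those that gave the calls, so a kept direction is no independent evidence.

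**Figure D2:**
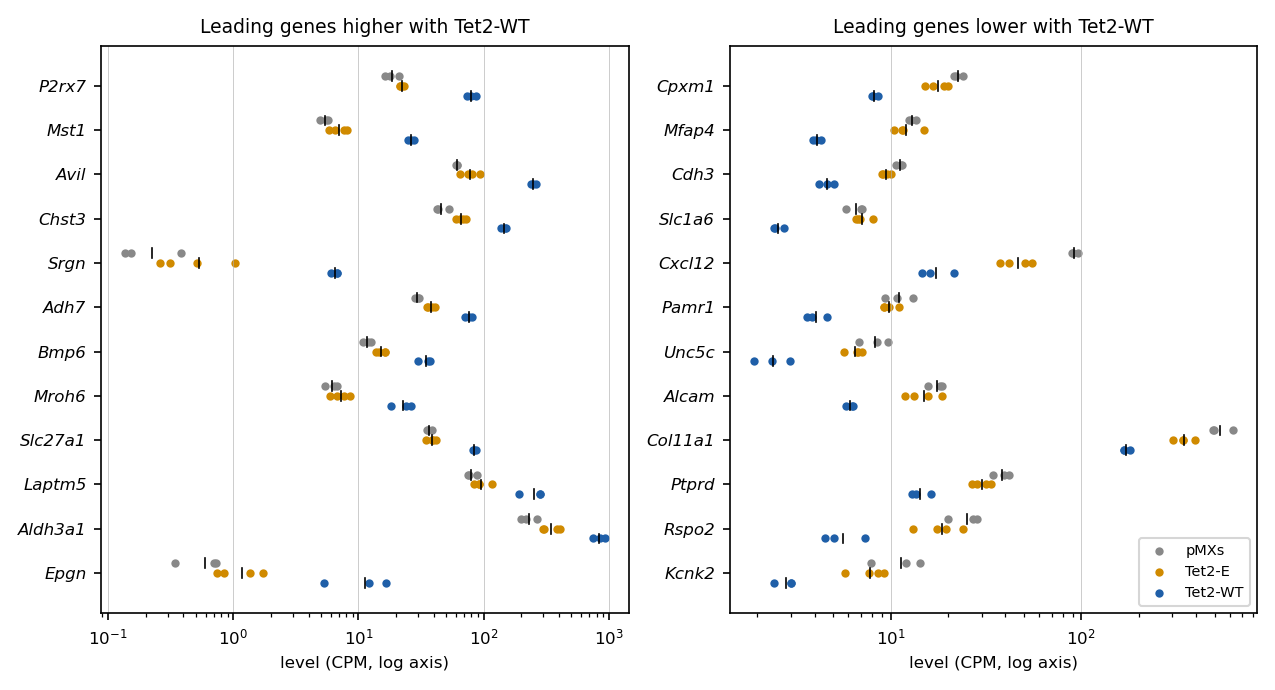
Level of the 12 leading higher (left) and 12 leading lower genes (right) in each library (CPM, log axis), with 1 point per library and a black line at the group mean; grey is pMXs (n = 3), orange Tet2-E (n = 4) and blue Tet2-WT (n = 3). In all 24 rows the blue points lie apart from the orange ones.

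The start sites of 3 leading higher and 3 leading lower genes are shown because CG dinucleotides (CpG) are the sites that carry the methyl group on which Tet2 acts. Each is the RefSeq window from 250 bases before to 50 bases after the annotated start in GRCm38.p6, 5′ to 3′ on the strand of the gene, with each CG in capitals. The higher genes are P2rx7 (chr5:122643677-122643976, plus strand, 8 CpG; a second annotated start has 4), Mst1 (chr9:108080186-108080485, plus strand, 5 CpG) and Avil (chr10:127000459-127000758, plus strand, 2 CpG). The lower genes are Cpxm1 (chr2:130397580-130397879, minus strand, 26 CpG), Slc1a6 (chr10:78780246-78780545, plus strand, 32 CpG) and Cxcl12 (chr6:117168285-117168584, plus strand, 20 CpG). Mfap4 and Cdh3 had no entry.
P2rx7: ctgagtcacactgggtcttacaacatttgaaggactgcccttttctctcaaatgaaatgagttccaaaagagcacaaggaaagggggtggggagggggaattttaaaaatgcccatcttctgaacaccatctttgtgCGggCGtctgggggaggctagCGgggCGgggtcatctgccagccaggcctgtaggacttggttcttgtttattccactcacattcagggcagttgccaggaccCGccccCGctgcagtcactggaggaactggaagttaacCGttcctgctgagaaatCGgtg
Mst1: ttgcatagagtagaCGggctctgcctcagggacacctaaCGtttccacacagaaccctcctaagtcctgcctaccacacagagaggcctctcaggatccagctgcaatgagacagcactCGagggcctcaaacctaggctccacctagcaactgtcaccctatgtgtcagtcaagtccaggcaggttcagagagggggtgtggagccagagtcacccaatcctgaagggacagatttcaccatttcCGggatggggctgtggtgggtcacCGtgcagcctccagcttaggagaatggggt
Avil: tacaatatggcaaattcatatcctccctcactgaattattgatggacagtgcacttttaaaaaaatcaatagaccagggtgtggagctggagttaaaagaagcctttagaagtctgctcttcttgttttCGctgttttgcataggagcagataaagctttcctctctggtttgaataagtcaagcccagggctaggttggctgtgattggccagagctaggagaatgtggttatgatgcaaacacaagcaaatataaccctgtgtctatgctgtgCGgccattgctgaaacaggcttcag
Cpxm1: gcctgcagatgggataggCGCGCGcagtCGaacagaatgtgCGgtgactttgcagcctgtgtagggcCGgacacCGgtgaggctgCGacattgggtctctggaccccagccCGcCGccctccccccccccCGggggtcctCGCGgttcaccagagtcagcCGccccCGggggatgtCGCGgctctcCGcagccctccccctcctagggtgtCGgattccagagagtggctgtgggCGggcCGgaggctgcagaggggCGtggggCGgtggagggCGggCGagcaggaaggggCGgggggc
Slc1a6: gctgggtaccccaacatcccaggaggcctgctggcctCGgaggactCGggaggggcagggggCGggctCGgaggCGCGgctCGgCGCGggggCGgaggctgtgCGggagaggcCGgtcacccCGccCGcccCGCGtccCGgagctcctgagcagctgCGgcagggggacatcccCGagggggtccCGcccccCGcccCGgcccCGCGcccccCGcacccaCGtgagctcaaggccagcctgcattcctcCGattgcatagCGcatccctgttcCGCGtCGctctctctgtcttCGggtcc
Cxcl12: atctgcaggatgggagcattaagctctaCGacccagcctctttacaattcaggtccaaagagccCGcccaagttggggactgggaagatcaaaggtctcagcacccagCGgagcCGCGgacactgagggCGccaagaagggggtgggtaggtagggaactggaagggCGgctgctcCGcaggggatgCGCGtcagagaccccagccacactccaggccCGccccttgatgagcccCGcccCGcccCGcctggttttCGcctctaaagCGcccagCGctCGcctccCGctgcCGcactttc

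The letters CG were searched on the strand shown, which reads the same on the other strand. Of the 27025 genes with such a window, 53.8% have at most as many CG as P2rx7, 43.6% as Mst1, 23.8% as Avil, 84.6% as Cpxm1, 91.7% as Slc1a6 and 75.0% as Cxcl12, counted in the first window of each gene. The 6 genes are too few to speak for the 675, and the RefSeq windows matched only 78.4% of genes tested and 73.0% and 73.4% of the higher and lower genes, so a check of the sets on these windows is void. A count over the first 300 bases of GENCODE M21 transcripts, chosen after the data were seen, matched 98.7% of genes tested. There the median was 10 CpG for the higher genes, 8 for those higher by at least 2-fold, 13 for the lower genes and 13.5 for all genes tested. At most 6 CpG were found in 23.4% of the higher genes, 31.3% of those higher by at least 2-fold, 11.6% of the lower genes and 13.1% of all. The genes higher by at least 2-fold were also of low level, with a median of 1.35 CPM with Tet2-E against 21.9 CPM over all genes tested. Those lower by at least 2-fold had a median of 4.15 CPM, 13 CpG and a share of 15.9% with at most 6. The part of level in the CpG counts was not tested. The files hold no methylation values.

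Many collagen chains were lower with Tet2-WT than with Tet2-E. Of 26 collagen chains tested 10 were lower, 1 was higher and 15 did not pass, with a list median of -0.47 on the log2 scale. Col1a1, the main chain of fibrillar type I collagen, was at 5001, 4649 and 4465 CPM with Tet2-WT and 6908, 6606, 6446 and 7145 CPM with Tet2-E (edgeR, log2 fold change -0.53 ± 0.09 (SE), adjusted p = 0.00331). Its partner chain Col1a2 was at 5286, 5092 and 4039.7 CPM with Tet2-WT and 5952, 5974, 5023 and 5347 CPM with Tet2-E, and its difference of -0.21 did not pass (adjusted p = 0.28). Col1a2 did pass in edgeR with the replicate block, at -0.25 in the day 5 libraries alone (0.0304) and -0.27 in both groups alone (0.0103). Within replicates 100 and 250, where Tet2-WT has 1 library, its difference was -0.36. Col5a1, which starts fibril assembly, was at 418, 398 and 384 CPM with Tet2-WT and 782, 683, 725 and 722 CPM with Tet2-E (edgeR, log2 fold change -0.86 ± 0.07 (SE), adjusted p = 1.04e-05). Col1a1 and Col5a1 did not overlap between the groups, while the ranges of Col1a2 did. The other fibrillar chains that were lower were Col11a1 (-1.01), Col3a1 (-0.60), Col5a2 (-0.60) and Col27a1 (-0.78), joined by the fibril-associated chains Col14a1 (-0.98) and Col12a1 (-0.92) and the basement membrane chains Col4a6 (-0.85) and Col4a5 (-0.65). Col4a1 and Col4a2, the common basement membrane chains, had log2 fold changes of 0.06 and 0.03 and did not pass. The summed level of the 26 chains was 15815 to 17700 CPM with Tet2-WT, 20477 to 21662 CPM with Tet2-E, 23010 to 25507 CPM with pMXs and 51252 to 54355 CPM in untreated MEFs. The call of Col14a1 was lost without Tet2-WT replicates 1 or 2 (0.0848, 0.0857).

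The exception, Col17a1, is a transmembrane collagen by which epithelial cells anchor to the basement membrane. It was at 3.85, 2.46 and 2.72 CPM with Tet2-WT, 0.629, 0.554, 0.55996 and 0.626 CPM with Tet2-E and 0.3804, 0.345 and 0.274 CPM with pMXs (edgeR, log2 fold change 2.32 ± 0.21 (SE), adjusted p = 1.58e-05). Every Tet2-WT library was above every other library. The mean of Col17a1 was under 1 CPM in every group but Tet2-WT, so its p-value is a description only.

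Of 40 matrix glycoproteins and proteoglycans 12 were lower, 0 higher and 28 did not pass, and 37 had a negative log2 fold change (list median -0.37). Besides Mfap4, the microfibril proteins Fbn2 and Mfap2 were lower: Fbn2 was at 52.4, 37.6 and 62.6 CPM with Tet2-WT and 102, 106, 193 and 129.6 CPM with Tet2-E (edgeR, log2 fold change -1.38 ± 0.23 (SE), adjusted p = 0.00354), and Mfap2 at 1.45, 1.45 and 1.96 CPM and 3.41, 2.77, 4.37 and 4.75 CPM (-1.28 ± 0.22, adjusted p = 0.00323). The Fbn2 level of Tet2-E replicate 100 was the highest, and no Tet2-E library reached down to the Tet2-WT range in either gene. Tnc, the adhesion-modulating tenascin C, was at 302, 279.8 and 308 CPM with Tet2-WT and 524, 445, 609.9 and 502 CPM with Tet2-E (edgeR, log2 fold change -0.81 ± 0.10 (SE), adjusted p = 0.000158). Tgfbi, a matrix protein induced by TGF-beta, was at 55.3, 48.03 and 50.02 CPM with Tet2-WT and 99.8, 100.3, 92.4 and 99.5 CPM with Tet2-E (edgeR, log2 fold change -0.94 ± 0.10 (SE), adjusted p = 4.92e-05). Gpc3, a membrane-bound heparan sulfate proteoglycan, had a log2 fold change of -1.03 ± 0.18. The other 6 were Postn (-1.17), Bgn (-0.67), Thbs2 (-0.58), Thbs1 (-0.46), Efemp1 (-0.37) and Gpc4 (-0.33). Each of these calls was lost when 1 library was left out, with a fold change close to that given, Postn without Tet2-WT replicates 1 or 2 (0.0623, 0.0948) or Tet2-E replicate 2 (0.0511), Bgn without Tet2-WT replicates 1 or 2 (0.208, 0.197) or Tet2-E replicates 100 or 250 (0.112, 0.115), Thbs2 without Tet2-WT replicates 1 or 2 (0.165, 0.185) or Tet2-E replicates 2, 100 or 250 (0.0612, 0.0961, 0.0896), Thbs1 without Tet2-WT replicate 2 (0.0529), Efemp1 without Tet2-WT replicates 1, 2 or 250 (0.0538, 0.0542, 0.0614) and Gpc4 without Tet2-WT replicate 2 (0.12), with the adjusted p in parentheses. Over the libraries left out in turn, 6 to 13 members were lower; with the replicate block 18 were, and 24 and 25 with the block in the day 5 libraries alone and in both groups alone. Fn1, the fibronectin gene, had -0.38 ± 0.11 and did not pass (adjusted p = 0.0547; 0.0314 with the block).

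**Figure D3:**
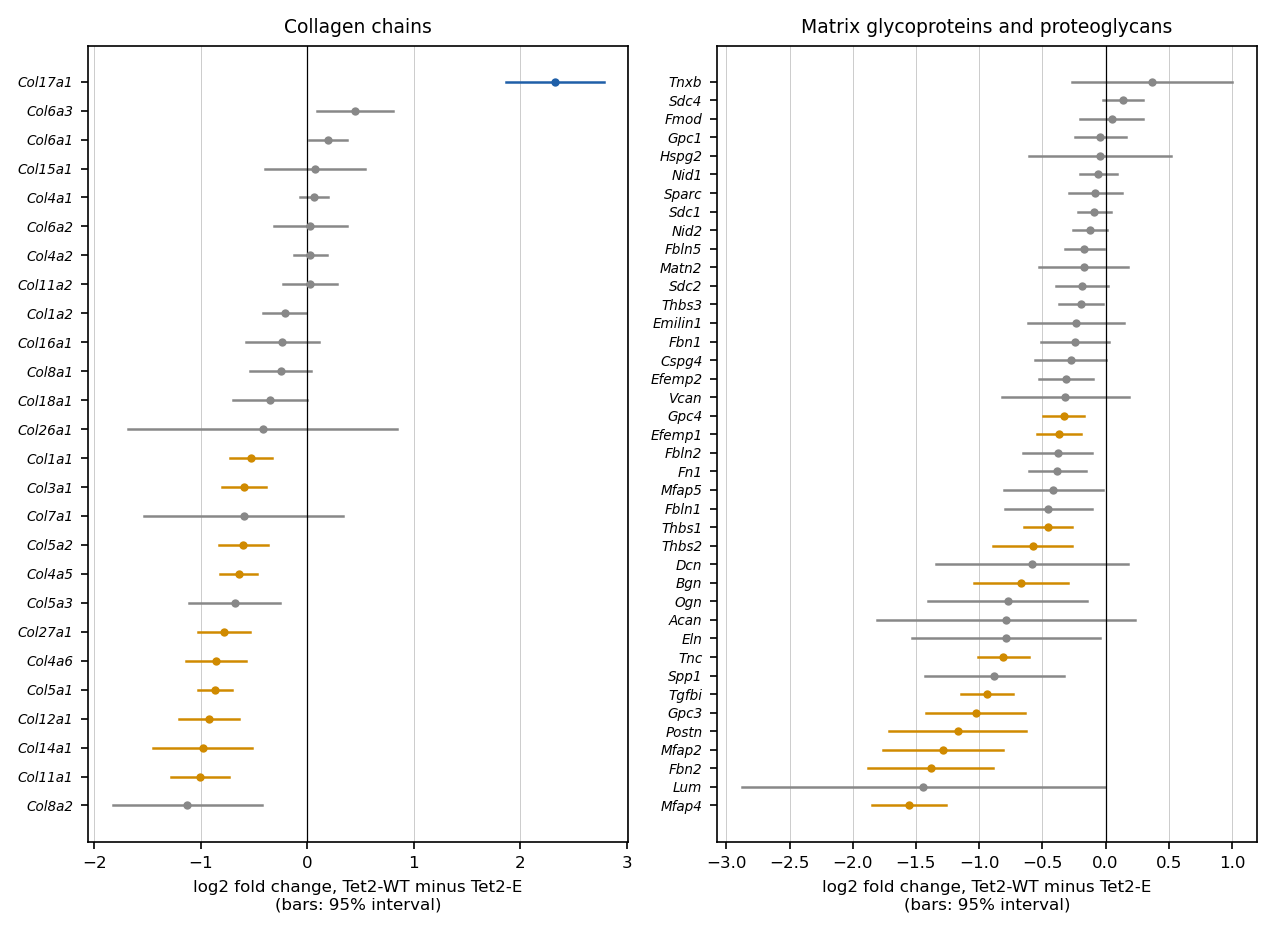
Log2 fold change of Tet2-WT over Tet2-E with its 95% interval for each of 26 collagen chains (left) and 40 matrix glycoproteins and proteoglycans (right); orange marks genes that were lower, blue the gene that was higher, and grey those that did not pass. Col17a1 stands alone on the right at 2.32, and 37 of the 40 points in the other panel lie left of 0.

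Of 20 enzymes that modify or cross-link collagen 3 were lower and 0 higher (list median -0.12), 5 with the replicate block. They were the lysyl oxidase gene Loxl1, at 49.3, 50.2 and 48.7 CPM with Tet2-WT and 67.5, 65.1, 82.2 and 85.4 CPM with Tet2-E (edgeR, log2 fold change -0.61 ± 0.11 (SE), adjusted p = 0.00575), and the prolyl hydroxylase genes P4ha3 (-0.55 ± 0.11) and P4ha2 (-0.34 ± 0.08). The call of P4ha2 was lost without Tet2-WT replicates 1 or 2 (0.116, 0.137) or Tet2-E replicates 1, 100 or 250 (0.0702, 0.0729, 0.0768). Of 30 genes that build or sulfate glycosaminoglycan chains, 4 were lower and 1, Chst3, higher (list median -0.09). The lower ones were the hyaluronan synthase gene Has2 (-1.04 ± 0.18), the heparan sulfotransferase gene Hs3st1 (-1.004 ± 0.21), Csgalnact1 (-0.64 ± 0.15) and Dse (-0.43 ± 0.09). The calls of Hs3st1 (without Tet2-WT replicate 1 (0.0538)), Csgalnact1 (without Tet2-WT replicates 2 or 250 (0.12, 0.0525) or Tet2-E replicates 2 or 250 (0.0502, 0.0515)) and Dse (without Tet2-WT replicates 1 or 2 (0.0804, 0.0846)) were lost when the libraries named were left out. Hs3st1 was near 1 CPM.

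Fibroblast surface and signalling genes went both ways. Of 22 tested, 4 were lower, 2 higher and 16 did not pass (list median -0.11), and with the replicate block 7 were lower and 2 higher. Itga11, the collagen-binding integrin subunit of fibroblasts, was at 28.99, 24.2 and 25.99 CPM with Tet2-WT and 40.9, 37.6, 43.5 and 41.5 CPM with Tet2-E (edgeR, log2 fold change -0.63 ± 0.09 (SE), adjusted p = 0.000512). Cxcl12, given above, was another, with Thy1 (-0.52 ± 0.11) and the growth factor receptor gene Pdgfrb (-0.59 ± 0.13). The calls of Thy1 (without Tet2-WT replicates 1 or 2 (0.107, 0.0911)) and Pdgfrb (without Tet2-WT replicates 1 or 2 (0.0935, 0.111) or Tet2-E replicates 100 or 250 (0.0521, 0.0505)) were lost when those libraries were left out. Ly6a, the Sca-1 antigen, was higher, at 654, 549.8 and 623 CPM with Tet2-WT, 433, 467, 369 and 454 CPM with Tet2-E and 309, 285 and 329 CPM with pMXs (edgeR, log2 fold change 0.50 ± 0.09 (SE), adjusted p = 0.00293). Eng, a co-receptor for TGF-beta, was at 67.8, 67.9 and 59.2 CPM with Tet2-WT and 50.3, 43.5, 46.7 and 43.96 CPM with Tet2-E (edgeR, log2 fold change 0.49 ± 0.08 (SE), adjusted p = 0.00176). Both were higher in every Tet2-WT library than in any Tet2-E library. Vim, the mesenchymal intermediate filament, had a log2 fold change of 0.00 (95% interval -0.21 to 0.22), Prrx1 of -0.19 (-0.42 to 0.03) and Twist2 of -0.04 (-0.29 to 0.21), and none of the 3 passed.

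Of 24 mesenchymal transcription factors 1 was lower, Osr1 (-1.14 ± 0.27, edgeR adjusted p = 0.0241), and 0 were higher (list median -0.20). With the replicate block 2 were lower, Msx2 being the other (-0.52, adjusted p = 0.0101); 7 and 6 were with the block in the day 5 libraries alone and in both groups alone, 5 with a term for the sets of numbers, 4 in both groups or the day 5 libraries alone and 3 by DESeq2. Osr1 was at 2.299, 2.69 and 2.96 CPM with Tet2-WT and 4.25, 4.91, 6.76 and 6.99 CPM with Tet2-E, and its call was lost without Tet2-WT replicates 1 or 2 (0.12, 0.106) or Tet2-E replicates 100 or 250 (0.0701, 0.0744) and with no filter on low counts (0.0583). Of 15 smooth muscle contractile genes Myl9, a myosin light chain (-0.50 ± 0.10), and Tagln, an actin-binding protein (-0.49 ± 0.12), were lower, and the actin gene Actg2 (0.62 ± 0.15) was higher (list median -0.31). With the replicate block 6 of them were lower. The calls of Tagln (without Tet2-WT replicates 1 or 250 (0.104, 0.1) or Tet2-E replicates 1 or 2 (0.0751, 0.0668)) and Actg2 (without Tet2-WT replicates 1 or 2 (0.0843, 0.12) or Tet2-E replicates 100 or 250 (0.0696, 0.0748)) were lost when those libraries were left out.

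TGF-beta and BMP genes were lower in 7 of 30 and higher in 0, with a positive log2 fold change in only 2 of them (list median -0.21). Among ligands, Tgfb3 was at 94.7, 94.9 and 95.6 CPM with Tet2-WT and 118, 125, 129.6 and 124 CPM with Tet2-E (edgeR, log2 fold change -0.38 ± 0.07 (SE), adjusted p = 0.00654), and Tgfb2 (-0.41 ± 0.10) and Bmp4 (-0.84 ± 0.20) were lower. Bmp6, given above, is outside this list and was higher. Grem1, a secreted BMP antagonist, was at 28.8, 33.1 and 42.6 CPM with Tet2-WT and 58.1, 65.4, 64.99 and 67.5 CPM with Tet2-E (edgeR, log2 fold change -0.88 ± 0.16 (SE), adjusted p = 0.00559). All Tet2-WT libraries of Grem1 lay below all Tet2-E libraries. Ltbp2, a matrix protein related to the binding proteins of latent TGF-beta (-0.73 ± 0.17), and the target Tgfbi were lower too. The calls of Tgfb2 (without Tet2-WT replicates 1, 2 or 250 (0.0771, 0.0711, 0.0827) or Tet2-E replicates 1 or 2 (0.0618, 0.0535)), Bmp4 (without Tet2-WT replicates 1 or 2 (0.141, 0.139) or Tet2-E replicates 2, 100 or 250 (0.0505, 0.0684, 0.0748)) and Ltbp2 (without Tet2-WT replicates 2 or 250 (0.11, 0.0746) or Tet2-E replicates 1 or 2 (0.0539, 0.0782)) were lost when those libraries were left out, and 11 members were lower with the replicate block. Tgfbi is counted in both the matrix and the TGF-beta lists, so these counts overlap.

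Of 33 epithelial genes tested 2 were higher and 0 lower, and 27 had a positive log2 fold change (list median 0.28). The count was 2 with the replicate block, 6 with the block in the day 5 libraries alone, 5 with the block in both groups alone and 4 without Tet2-WT replicate 250. The 2 called with all libraries were the paired keratins of simple epithelia. Krt8 was at 22.98, 17.8 and 12.9 CPM with Tet2-WT, 9.86, 8.37, 7.06 and 9.65 CPM with Tet2-E and 10.9, 7.85 and 6.78 CPM with pMXs (edgeR, log2 fold change 1.04 ± 0.18 (SE), adjusted p = 0.00338). Krt18 was at 9.85, 7.05 and 5.25 CPM with Tet2-WT, 3.67, 2.77, 3.06 and 2.32 CPM with Tet2-E and 1.65, 2.64 and 2.05 CPM with pMXs (edgeR, log2 fold change 1.33 ± 0.21 (SE), adjusted p = 0.00185). In both, Tet2-WT replicate 250 was the lowest of its group and still above all Tet2-E libraries. Within replicates 100 and 250, where Tet2-WT has 1 library, the differences were smaller, 0.63 for Krt8 and 0.97 for Krt18. Cdh1, the epithelial cadherin, was at 262, 261 and 180.1 CPM with Tet2-WT and 259.8, 227, 251 and 210.1 CPM with Tet2-E, with overlapping groups (edgeR, log2 fold change -0.02 ± 0.15 (SE), adjusted p = 0.988). Epcam, an epithelial adhesion molecule, was at 12.8, 14.5 and 8.22 CPM with Tet2-WT and 9.75, 9.69, 8.55 and 8.84 CPM with Tet2-E (0.37 ± 0.17, adjusted p = 0.295), and passed only without Tet2-WT replicate 250 (0.0316).

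Of 29 keratins and genes of the cornified envelope 5 were higher and 0 lower (list median 0.32): Krt8, Krt18, the basal keratin gene Krt14 (1.95 ± 0.50), Krt80 (1.01 ± 0.28) and the desmosome gene Pkp1 (0.67 ± 0.18). Krt14 was at only 3.096, 1.72 and 0.8599 CPM with Tet2-WT and 0.944, 0.277, 0.336 and 0.405 CPM with Tet2-E, and these ranges overlapped. The calls of Krt14 (without Tet2-WT replicates 1 or 2 (0.251, 0.1) or Tet2-E replicates 2, 100 or 250 (0.09, 0.116, 0.11)), Krt80 (without Tet2-WT replicates 1 or 2 (0.308, 0.1) or Tet2-E replicates 2, 100 or 250 (0.0997, 0.14, 0.133)) and Pkp1 (without Tet2-WT replicates 1, 2 or 250 (0.169, 0.172, 0.0667) or Tet2-E replicates 1, 2, 100 or 250 (0.061, 0.119, 0.11, 0.0969)) were lost when those libraries were left out, with 2 to 5 members higher over all such settings. Itgb4, an integrin subunit by which epithelial cells hold to the basement membrane, was at 954, 848 and 610.2 CPM with Tet2-WT, 547, 473, 398 and 374 CPM with Tet2-E and 382, 298 and 304 CPM with pMXs (edgeR, log2 fold change 0.84 ± 0.16 (SE), adjusted p = 0.00559). Lama3, a laminin chain of epithelial basement membranes, was at 31.2, 23.4 and 17.1 CPM with Tet2-WT and 12.4, 11.6, 9.93 and 8.76 CPM with Tet2-E (edgeR, log2 fold change 1.17 ± 0.21 (SE), adjusted p = 0.00466). The groups did not overlap for either gene. Itgb4 and Lama3 were the 2 higher of 29 integrins and laminins, and Itga11, Itga8 (-0.84 ± 0.12) and Lamb1 (-0.43 ± 0.08) were the 3 lower (list median -0.01).

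Of 8 markers of macrophages and blood cells that were tested, 4 were higher, 0 were lower and 4 did not pass (list median 0.94). A positive log2 fold change was found in 6 of the 8. Laptm5 was at 282, 281 and 191 CPM with Tet2-WT and 116, 91.8, 92.5 and 84.1 CPM with Tet2-E. Itgam, an integrin subunit of myeloid cells, was at 7.69, 7.01 and 6.69 CPM with Tet2-WT, 2.41, 2.77, 1.68 and 2.02 CPM with Tet2-E and 1.205, 0.6895 and 0.479 CPM with pMXs (edgeR, log2 fold change 1.71 ± 0.20 (SE), adjusted p = 0.000174). Cd68, a lysosomal protein, was at 18.8, 15.1 and 14.2 CPM with Tet2-WT and 7.76, 7.68, 4.85 and 6.88 CPM with Tet2-E (edgeR, log2 fold change 1.25 ± 0.17 (SE), adjusted p = 0.000526). All Tet2-WT libraries lay above all Tet2-E libraries in the 3 genes. Csf1r, the receptor for macrophage colony-stimulating factor, was at 1.08, 0.8204 and 0.669 CPM with Tet2-WT and 0.577, 0.415, 0.187 and 0.295 CPM with Tet2-E (1.28 ± 0.34, adjusted p = 0.043), and its call was lost without Tet2-WT replicates 1 or 2 (0.219, 0.128) or Tet2-E replicates 2, 100 or 250 (0.0605, 0.132, 0.128). DESeq2 did not call Csf1r (adjusted p = 0.0768). Nor did edgeR with no filter (0.0539), in both groups alone (0.0859) or in the day 5 libraries alone (0.0508). Over the libraries left out in turn, 3 to 4 members of the list were higher, and 3 were by DESeq2. The members too low to test were at or near 0. Over the 7 libraries Tyrobp had 0 counts, Ctss, Adgre1, Aif1 and Spi1 at most 1 count in any library, and Ptprc, Cd53, Lyz2 and Fcgr3 at most 2. The summed level of the list was 215 to 313 CPM with Tet2-WT, 95.5 to 129 CPM with Tet2-E, 83.2 to 96.9 CPM with pMXs and 8.26 to 10.2 CPM in untreated MEFs, and Laptm5 made up most of it in the day 5 groups. Whether other cells contributed to the rise was not tested.

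Interferon response genes were higher in 3 of 32 and lower in 0, and 28 had a positive log2 fold change (list median 0.42). Xaf1, an interferon-induced gene linked to cell death, was at 12.01, 10.3 and 9.55 CPM with Tet2-WT and 6.92, 6.78, 3.73 and 5.41 CPM with Tet2-E (edgeR, log2 fold change 0.92 ± 0.17 (SE), adjusted p = 0.00575). Isg15, a ubiquitin-like modifier, was at 2.49, 2.46 and 1.96 CPM with Tet2-WT and 1.57, 0.8303, 0.747 and 0.884 CPM with Tet2-E (edgeR, log2 fold change 1.21 ± 0.24 (SE), adjusted p = 0.00884). Oasl2 stayed near 1 CPM or below, at 0.751, 1.01 and 1.003 CPM with Tet2-WT and 0.2097, 0.554, 0.149 and 0.368 CPM with Tet2-E (1.599 ± 0.36). In untreated MEFs Xaf1 was at 7.66, 7.36 and 8.62 CPM, Isg15 at 5.49, 6.05 and 5.26 CPM and Oasl2 at 1.33, 1.21 and 1.801 CPM. The calls of Isg15 (without Tet2-WT replicate 2 (0.0516)) and Oasl2 (without Tet2-WT replicate 2 (0.0864) or Tet2-E replicate 100 (0.0566)) were lost when those libraries were left out. Of 20 genes of antigen presentation by MHC class I (list median -0.05), Tapbp alone was higher (0.30 ± 0.07), a call lost without Tet2-WT replicates 1 or 2 (0.149, 0.0739) or Tet2-E replicate 100 (0.0576).

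None of the 4 OKSM factors passed in edgeR (0 had an unadjusted p under 0.05, and DESeq2 called 0), and 2, Pou5f1 and Myc, did when only the libraries of both groups were fitted with the replicate block. Pou5f1 was at 285, 254 and 248 CPM with Tet2-WT and 251, 183, 240.4 and 223 CPM with Tet2-E (0.23 ± 0.13, 95% interval -0.06 to 0.51). Klf4 differed by 0.17 (-0.01 to 0.35), Sox2 by 0.17 (-0.13 to 0.47) and Myc by 0.18 (-0.14 to 0.51). All 4 estimates were positive, that of Sox2 turning to -0.04 within replicates 100 and 250, and all 4 genes had their lowest day 5 level in Tet2-E replicate 2. The counts do not separate induced from endogenous transcripts.

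Of 25 genes of the pluripotency network 1 was higher and 1 lower (list median -0.03), and 3 and 1 with the replicate block. Gdf3, a TGF-beta family ligand of pluripotent cells, was at 20.1, 22.04 and 22.3 CPM with Tet2-WT, 9.699, 9.76, 13.9 and 12.996 CPM with Tet2-E and 14.5, 12.2 and 11.6 CPM with pMXs (edgeR, log2 fold change 0.88 ± 0.15 (SE), adjusted p = 0.00244). The Tet2-WT libraries lay above all others. Lin28a, an RNA-binding protein that blocks let-7 maturation, was at 1.69, 2.42 and 1.48 CPM with Tet2-WT and 4.14, 3.39, 3.62 and 5.49 CPM with Tet2-E (edgeR, log2 fold change -1.15 ± 0.27 (SE), adjusted p = 0.0206), a call lost without Tet2-WT replicates 1 or 250 (0.107, 0.0713) or Tet2-E replicate 250 (0.0734). Nanog, a core factor of the network, was at 10.1, 12.7 and 4.92 CPM with Tet2-WT and 11.4, 12.8, 7.91 and 13.1 CPM with Tet2-E, with overlapping groups (-0.27 ± 0.27, adjusted p = 0.759). Esrrb, another nuclear factor of the network, was at 0.563, 0.559 and 0.4299 CPM with Tet2-WT and 0.734, 1.52, 1.16 and 1.25 CPM with Tet2-E. These ranges did not overlap, as was so in this direction for 7.54% of all genes tested. Esrrb was low, was not called, and was picked after its values were seen.

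Of 24 enzymes that act on cytosine or its methylation 0 passed in edgeR, 1 had an unadjusted p under 0.05, DESeq2 called 0, and the list median was -0.03. Tet1 was at 19.14, 21.96 and 9.79 CPM with Tet2-WT and 25.1, 22.7, 16.6 and 13.8 CPM with Tet2-E (-0.18 ± 0.31, 95% interval -0.86 to 0.50). Tet3 had a log2 fold change of -0.14 ± 0.13 (-0.41 to 0.14). Tdg, the glycosylase that acts on the higher oxidised bases, was near the lower end of detection, at 0.422, 0.448 and 0.4299 CPM with Tet2-WT and 0.472, 0.761, 0.896 and 0.552 CPM with Tet2-E (-0.62 ± 0.30, adjusted p = 0.339). With the replicate block Apobec1, a cytidine deaminase, was higher (0.30, adjusted p = 0.00747). Dnmt3b, a de novo methyltransferase, had -0.37 ± 0.14 (adjusted p = 0.171) and passed in the fit of both groups alone with the replicate block (0.0294). A miss of the threshold does not show equal levels.

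Germline genes, many of which are silenced by promoter methylation in somatic cells, were mostly too low to test: 12 of 31 passed the filter, of which 2 were higher and 0 lower (list median 0.01). Piwil2, a piRNA-binding protein, was at 1.27, 1.604 and 1.05 CPM with Tet2-WT and 0.315, 0.415, 0.112 and 0.442 CPM with Tet2-E (edgeR, log2 fold change 2.06 ± 0.41 (SE), adjusted p = 0.00813), and its call was lost without Tet2-WT replicate 2 (0.0607). Rec8, a meiotic cohesin, was at 40.3, 35.6 and 36.9 CPM with Tet2-WT and 28.2, 27.7, 31.1 and 29.9 CPM with Tet2-E (edgeR, log2 fold change 0.36 ± 0.07 (SE), adjusted p = 0.00977), a call lost without Tet2-WT replicate 1 (0.08). The 2 genes differ in their start, since Rec8 was at 0.541, 0.453 and 0.487 CPM in untreated MEFs and 29.99, 33.6 and 33.5 CPM with pMXs, while Piwil2 stayed under 1 CPM except with Tet2-WT. Of 40 imprinted genes 1 was higher and 2 lower (list median -0.04). Nap1l5 was at 2.11, 1.86 and 2.102 CPM with Tet2-WT and 4.04, 5.12, 5.23 and 3.68 CPM with Tet2-E (edgeR, log2 fold change -1.15 ± 0.18 (SE), adjusted p = 0.00176). Igf2, the fetal growth factor, was at 106, 100.2 and 153 CPM with Tet2-WT and 191, 239.6, 365 and 322 CPM with Tet2-E (-1.22 ± 0.31), and its call was lost without Tet2-WT replicates 1 or 2 (0.186, 0.194) or Tet2-E replicates 2, 100 or 250 (0.0716, 0.106, 0.109), with no filter (0.116) and in the day 5 libraries alone (0.073). Ddc, the dopa decarboxylase gene, was higher (0.66 ± 0.14), a call lost without Tet2-WT replicate 1 (0.0743).

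Of 30 genes of aldehyde, alcohol and drug metabolism 5 were higher and 3 lower (list median 0.11). Aldh3a1 and Adh7 are given above. Srd5a1, a steroid reductase, was at 89.97, 87.3 and 80.8 CPM with Tet2-WT, 50.2, 45.1, 51.1 and 47.1 CPM with Tet2-E and 37.3, 38.7 and 37.6 CPM with pMXs (edgeR, log2 fold change 0.83 ± 0.07 (SE), adjusted p = 1.04e-05), with no overlap between any of the 3 groups. Aldh2 (0.36 ± 0.09) and the glutathione transferase gene Gstp1 (0.35 ± 0.09) had smaller rises, lost without Tet2-WT replicates 1, 2 or 250 (0.126, 0.086, 0.0725) or Tet2-E replicates 2 or 250 (0.0677, 0.0517) for Aldh2 and without Tet2-WT replicates 1 or 250 (0.114, 0.11) or Tet2-E replicates 1, 2 or 100 (0.0646, 0.0679, 0.0688) for Gstp1. The lower genes were Cyp1b1 (-0.51 ± 0.11), a cytochrome P450, the retinaldehyde dehydrogenase gene Aldh1a2 (-0.86 ± 0.23) and Akr1b8 (-0.46 ± 0.11). All 3 calls were lost when 1 library was left out, Cyp1b1 without Tet2-WT replicates 1 or 2 (0.0757, 0.0709), Aldh1a2 without Tet2-WT replicates 1 or 2 (0.219, 0.144) or Tet2-E replicates 2, 100 or 250 (0.0503, 0.126, 0.109) and Akr1b8 without Tet2-WT replicates 1 or 2 (0.0757, 0.138) or Tet2-E replicates 100 or 250 (0.0642, 0.0744). The summed level of the list was 3480 to 3757 CPM with Tet2-WT and 2788 to 3117 CPM with Tet2-E.

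**Figure D4:**
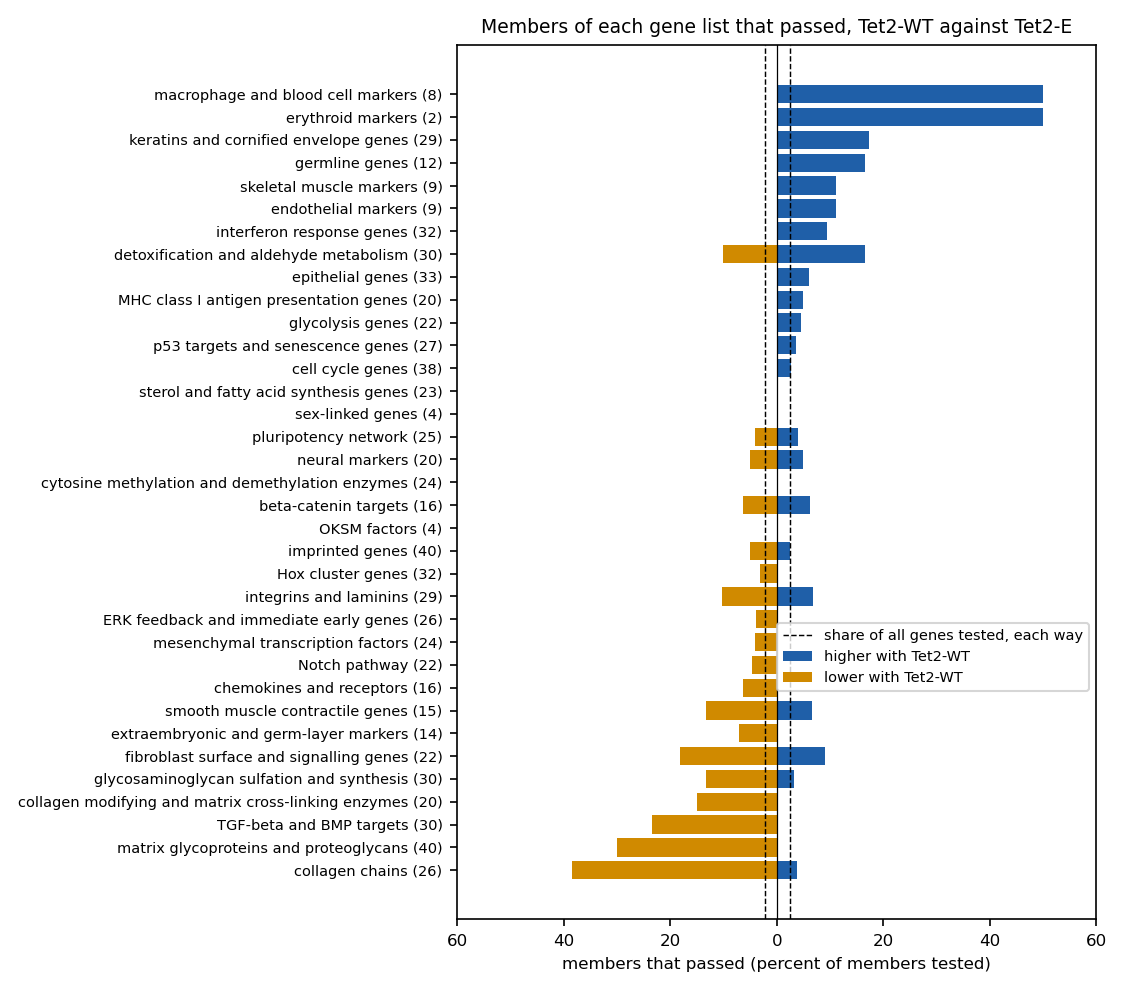
Share of the tested members of each gene list that were higher (blue, to the right) or lower (orange, to the left) with Tet2-WT, in percent (the lists picked on the comparisons with pMXs are not drawn), with the number tested in parentheses and dashed lines at the share of all genes tested (2.43% and 2.19%). Collagen chains (10 of 26), matrix glycoproteins (12 of 40) and TGF-beta and BMP genes (7 of 30) extend farthest to the left of the lists drawn, and the bars of lists with fewer than 10 tested genes rest on 0 to 4 genes.

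Of the 355 higher genes, 55 (15.5%) had a mean under 1 CPM with Tet2-E, a share near the 12.1% of all genes tested. Of the 55, 50 were also under 1 CPM with pMXs and in untreated MEFs, and 38 reached at least 1 CPM with Tet2-WT. Genes this low can pass the filter through the Tet2-WT libraries alone, which favours those high there, so these counts are a description only. The same limit applies to Srgn, Slpi, Otud6a, Col17a1, Krt14, Piwil2 and Chrna1, each with a mean under 1 CPM in every other group. Any p-value given for them is a description only. Slpi, a secreted protease inhibitor of epithelia, was at 3.52, 2.91 and 5.68 CPM with Tet2-WT, 0.315, 0.346, 0.299 and 0.258 CPM with Tet2-E, 0.254, 0.153 and 0.205 CPM with pMXs and 0.416, 0 and 0 CPM in untreated MEFs (edgeR, log2 fold change 3.72 ± 0.45 (SE), adjusted p = 0.000181). Otud6a was at 1.03, 0.783 and 0.812 CPM with Tet2-WT and 0.0524, 0, 0.0747 and 0 CPM with Tet2-E. Every Tet2-WT library lay above every Tet2-E library in both genes, and no fold is given for Otud6a because the Tet2-E libraries held only a few reads. Of the 320 lower genes, 31 had a mean under 1 CPM with Tet2-WT. The share of all genes tested under 1 CPM with Tet2-WT was not counted, so the 31 are not compared with the 55. Msln, the mesothelial surface protein mesothelin, changed at a higher level, 217, 209 and 126 CPM with Tet2-WT against 44.3, 45.1, 27.6 and 30.2 CPM with Tet2-E (edgeR, log2 fold change 2.33 ± 0.25 (SE), adjusted p = 0.000199). These genes were picked after their values were seen.

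Beside the empty vector, Tet2-E and Tet2-WT differed in how many genes passed: 7 for Tet2-E (0.0479%), Tet2 included, of which 3 were higher (0.0205%) and 4 lower (0.0274%), and 1830 for Tet2-WT (12.5%), of which 878 were higher (6.01%) and 952 lower (6.52%). The pMXs libraries serve both counts, and the Tet2-WT and Tet2-E libraries are those of the comparison above, so the values are set side by side only. P2rx7 had a log2 fold change over pMXs of 0.26 ± 0.10 with Tet2-E (adjusted p = 0.444) and 2.10 ± 0.11 with Tet2-WT. Col5a1 had -0.21 ± 0.07 with Tet2-E (adjusted p = 0.367) and -1.07 ± 0.08 with Tet2-WT. The leading genes of Tet2-WT against pMXs, 17 in number, are 8 that were higher and 9 that were lower with Tet2-WT than with Tet2-E; they were picked on the same Tet2-WT libraries, so this count is no independent evidence.

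The 6 genes other than Tet2 that passed for Tet2-E over pMXs fell into groups. Lgals3, the galectin-3 gene, was at 149, 146 and 119 CPM with pMXs, 267, 266, 196 and 229 CPM with Tet2-E and 403, 378 and 329 CPM with Tet2-WT, and was higher with Tet2-WT than with Tet2-E (edgeR, log2 fold change 0.63 ± 0.11 (SE), adjusted p = 0.00338). Chst3 was at 52.6, 42.9 and 42.7 CPM with pMXs, 72.9, 68.02, 64.4 and 60.5 CPM with Tet2-E and 151, 148 and 138 CPM with Tet2-WT. Enpp1, a phosphodiesterase gene, was at 2.66, 2.87 and 3.01 CPM with pMXs, 1.36, 1.38, 1.46 and 1.804 CPM with Tet2-E and 0.751, 0.895 and 0.669 CPM with Tet2-WT, and was lower with Tet2-WT than with Tet2-E (edgeR, log2 fold change -0.96 ± 0.17 (SE), adjusted p = 0.00416). In these 3 genes, and in Cxcl12, the Tet2-E libraries lay between those of pMXs and Tet2-WT. Zfp618 was at 8.05, 7.16 and 8.28 CPM with pMXs, 4.14, 4.64, 5.38 and 4.31 CPM with Tet2-E and 4.74, 4.14 and 4.63 CPM with Tet2-WT, and the last pair did not pass (-0.04 ± 0.12, 95% interval -0.30 to 0.21). Zfp467 likewise did not pass (-0.32 ± 0.13, 95% interval -0.59 to -0.05). The zinc-finger genes are thus the 2 of the 6 for which no difference between the Tet2 forms was called.

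The change from untreated MEFs to pMXs cells at day 5 shares no library with Tet2-WT against Tet2-E. Of the 320 lower genes, 269 (84.1%) had fallen from untreated MEFs to pMXs and 34 (10.6%) had risen. Of the 355 higher genes, 205 (57.7%) had risen and 77 (21.7%) had fallen. Of all genes tested 70.1% passed in this comparison, 35% rising and 35% falling. Among changes of at least 2-fold, 56 of 69 lower genes (81.2%) had fallen and 61 of 116 higher genes (52.6%) had risen. Across the 14607 genes, which are not independent replicates and share depth and annotation, the log2 fold changes of both comparisons correlated with Pearson's r of 0.29 and Spearman's rho of 0.25.

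Named genes fall on both sides of this pattern. Col5a1, Tnc, Mfap4 and Cpxm1 were lower in pMXs cells than in untreated MEFs and lower again with Tet2-WT, with Cpxm1 at 130.0, 129.7 and 131 CPM in untreated MEFs. Laptm5, Aldh3a1 and Gdf3 were higher in pMXs cells than in untreated MEFs and higher again with Tet2-WT. Nap1l5 and Lin28a went against it, since both were higher in pMXs cells than in untreated MEFs, where Nap1l5 was at 2.25, 1.96 and 2.68 CPM and Lin28a at 0, 0.101 and 0 CPM, and lower with Tet2-WT.

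**Figure D5:**
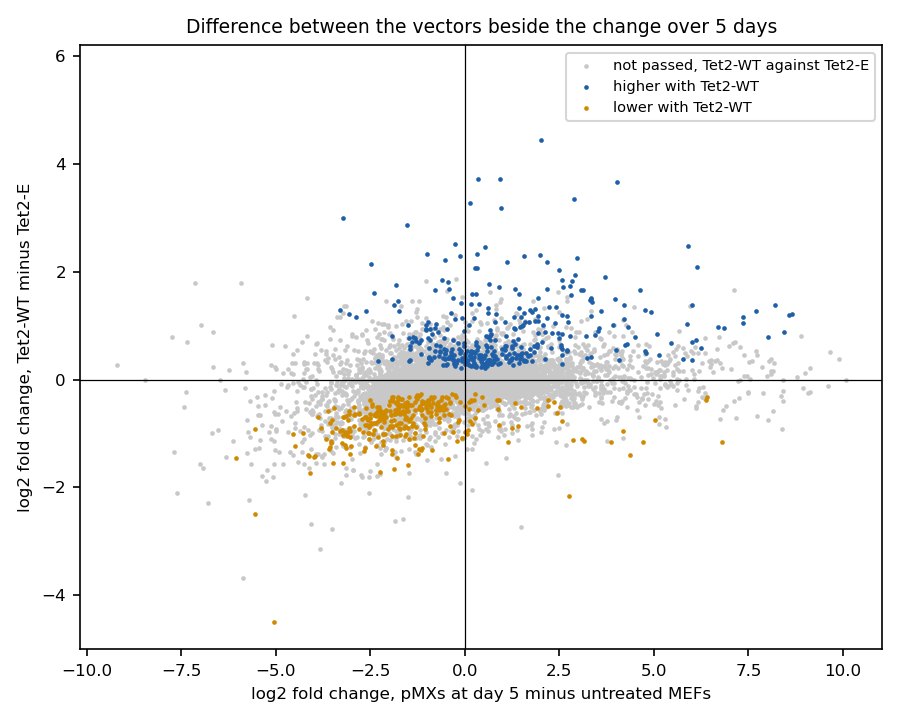
Log2 fold change of Tet2-WT over Tet2-E (vertical axis) against that of pMXs at day 5 over untreated MEFs (horizontal axis), 1 point per gene tested; blue genes were higher and orange genes lower with Tet2-WT. Most orange points (269 of 320) belong to genes that had fallen by day 5, and blue points lie on both sides (205 had risen, 77 had fallen).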

How the data were processed

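RNA-seq counts of 13 mouse libraries were used, 7 of them in the comparison. The authors deposited raw counts of reads for each gene; per the submitters' processing notes the tools were DESeq2 1.26.0, featureCounts 1.6.2, STAR 2.6.1a, bedtools 2.27.1, SAMtools 1.7 and R 3.6.2, with the build mm9, and how the counting treated strand is not given in the sources used here. Per the labels' protocols, RNA was made into stranded mRNA libraries in 2 sets, and which library was in which is not given. No label says that replicates were separate cultures, and p-values therefore speak only of how these libraries vary.

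Tests used edgeR 4.0.16 (R 4.3.3). Of 24495 genes, filterByExpr (count minimum 10, total minimum 15) kept 14607. Scaling was by TMM, and CPM are counts scaled to a common total after TMM. A robust quasi-likelihood fit of all 13 libraries with a mean per group gave the contrast Tet2-WT minus Tet2-E, so all groups share the estimate of spread (biological coefficient of variation 0.102). P-values were Benjamini-Hochberg adjusted over all genes, with a threshold of 0.05. The SE is the absolute log2 fold change divided by the square root of F, and intervals are 95%. The procedure was run on simulated counts that held no effect of the sets of numbers, so the result does not cover such an effect. It called 89 of 100 genes set to a 2-fold change and 70 of 100 set to a smaller change, with 7 false calls.

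The replicate numbers recur across groups in the labels. After group means were removed, day 5 libraries of the same number correlated across genes at 0.121 to 0.339 (8 pairs). Other pairs within 1 and 2 or within 100 and 250 gave 0.078 to 0.363, and pairs across gave -0.420 to -0.050. The first 2 ranges overlap, so the correlations do not show pairing by number, and the replicate block is an alternative only. Alternatives were DESeq2 1.42.0, RLE scaling and a stricter filter (1 CPM or more in 3 libraries) or none. Fits of the 2 groups or the day 5 libraries alone were others, as were the replicate block and a term for the sets of numbers. Each library was also left out in turn. Contrasts within each set of numbers came from a fit of all 13 libraries with a mean per group and set. Within 100 and 250 Tet2-WT has 1 library.

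The 37 gene lists, the genes and the tests were chosen with earlier results of these data known. The text names the OKSM genes, Tdg and the Tet genes Tet1, Tet2 and Tet3. It names 12 genes in each direction, ranked by p, from called genes with a log2 change of 1 or more, a mean of 5 CPM or more in either group, no overlap and a gene name. From each list it names up to 2 members in each direction, those that changed most and reached 1 CPM, or, where none passed, the member with the lowest p. It also names the leading genes against pMXs. Other members named in list counts, the defining fibroblast markers, Cdh1, Epcam, Nanog, Esrrb, Slpi, Otud6a and Msln were added after values were seen. Promoter sequences are from RefSeq (GRCm38.p6); no coordinates of the mm9 files were used. The values of 1 gene counted in a list are not reported here.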

Additional observations from a re-analysis of the deposited data

Results flagged for a closer look

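Among the genes named or counted by list, 136 were checked for 1 library standing far from the rest of the 4 Tet2-E libraries, and 7 (5.15%) did; chance gives about 1 in 20. In Tet2-E replicate 100, Tet2 was at 581 CPM against 1299 to 1403 in the others, and Tgfbi at 92.4 CPM against 99.5 to 100.3. In Tet2-E replicate 1, Isg15 was at 1.57 CPM against 0.747 to 0.884, and Krt80 at 3.15 CPM against 1.68 to 1.87. In Tet2-E replicate 2, P4ha2 was at 77.1 CPM against 91.2 to 93.4, Aldh2 at 165 CPM against 196 to 197, and Xist at 9.27 CPM against 0.419 to 0.597. Xist did not pass between the groups (-2.11 ± 1.10, edgeR adjusted p = 0.412), and the sex of the embryos is not given. Without Tet2-E replicate 100, in which the Tet2 level was lowest, 510 genes differed between Tet2-WT and Tet2-E. The count was 490 without Tet2-E replicate 250, 603 without its replicate 2 and 665 without its replicate 1.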

How the results depend on the processing

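All 675 genes kept their direction within replicates 1 and 2 and within replicates 100 and 250, where Tet2-WT has 1 library. The 675 were called on these same libraries, so a kept direction is no independent evidence. The number of genes called moved with the setting. The replicate block gave 506 lower genes and 965 in all, 653 of them among the 675; in the day 5 libraries alone it gave 1592 genes (778 higher, 814 lower), and in the 2 groups alone 1341 (642 higher, 699 lower). In all 13 libraries it ended no call of the 92 genes named by rule. In the 2 groups alone it ended that of Hs3st1, which is among the 92 (edgeR adjusted p = 0.0694). It also ended those of Akr1b8 (0.0516) and Csf1r (0.085), which were added after values were seen. A term for the sets of numbers gave 1052 (535 lower), replicates 1 and 2 alone 1015 (532 lower), replicates 100 and 250 alone 221 higher genes, and DESeq2 508 lower genes. Leaving out 1 library gave 335 to 675 genes, 162 to 371 higher, 165 to 318 lower and 114 to 232 with at least 2-fold; the lowest counts were without Tet2-WT replicate 1 or 2, when Tet2-WT has 1 library from replicates 1 and 2. The cause of these moves was not tested. Higher genes were 44.7% to 55% of those called. Of the 79 genes named by rule that passed, 48 passed in every alternative and 31 were lost in at least 1, of which leaving out replicate 1 of Tet2-WT ended 20 and leaving out its replicate 2 ended 19. No call of a named gene changed sign, but estimates that had not passed did, those of Tet2 (-0.19 to 0.39), Sox2 (-0.04 to 0.31), Tet1 (-0.63 to 0.09), Tet3 (-0.51 to 0.02), Zfp618 (-0.09 to 0.05), Xist (-2.98 to 0.02), Cdh1 (-0.36 to 0.14), Epcam (-0.08 to 0.58), Nanog (-1.09 to 0.03), Twist2 (-0.12 to 0.02) and Vim (-0.09 to 0.09). Depth limits the genes under 1 CPM most, since few reads stand behind their values.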

Other observations

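Counts for the gene groups not yet given follow. Over all genes tested 2.43% were higher and 2.19% lower, so 1 or 2 called members are not read as a result about a group. Of 38 cell cycle genes 1 was higher and 0 lower (list median -0.10). It was Ccnd1, cyclin D1, at 1864, 1675 and 1755 CPM with Tet2-WT and 1408, 1466, 1468 and 1424 CPM with Tet2-E (edgeR, log2 fold change 0.29 ± 0.06 (SE), adjusted p = 0.0107), and its call was lost without Tet2-WT replicate 1 (0.0901). Of 27 p53 and senescence genes Gdf15, a stress-induced cytokine, was higher (0.65 ± 0.15), a call lost without Tet2-WT replicates 1 or 2 (0.142, 0.11) or Tet2-E replicates 2, 100 or 250 (0.0503, 0.0678, 0.0617). Of 26 ERK feedback and immediate early genes Spry1, an inhibitor of receptor tyrosine kinase signalling, was lower (-0.45 ± 0.11), a call lost without Tet2-WT replicates 1 or 2 (0.188, 0.166) or Tet2-E replicates 100 or 250 (0.115, 0.088). Of 16 beta-catenin targets Ccnd1 was higher and Sp5 lower (-1.15 ± 0.24, lost without Tet2-WT replicate 2 (0.0887)), and 3 were lower with the replicate block. Of 22 Notch genes Hey2, a transcriptional repressor, was lower, at 5.72, 5.41 and 6.64 CPM with Tet2-WT and 9.49, 10.6, 12.1 and 10.3 CPM with Tet2-E (edgeR, log2 fold change -0.85 ± 0.14 (SE), adjusted p = 0.00227). Of 16 chemokines and receptors only Cxcl12 passed.

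Of 22 glycolysis genes Eno3, an enolase, was higher, at 31.1, 28.5 and 29.95 CPM with Tet2-WT and 22.3, 21.7, 16.9 and 19.9 CPM with Tet2-E (edgeR, log2 fold change 0.57 ± 0.10 (SE), adjusted p = 0.0027), and 3 were with the replicate block. Of 23 sterol and fatty acid synthesis genes 0 passed in edgeR, 2 had an unadjusted p under 0.05 and DESeq2 called 0. Of 32 Hox genes Hoxb9 was lower (-0.32 ± 0.08, lost without Tet2-WT replicates 1 or 2 (0.215, 0.19) or Tet2-E replicates 2, 100 or 250 (0.0902, 0.0801, 0.0843)), while 4 were higher and 1 lower with the replicate block. Among markers of other cells, Eng was higher of 9 endothelial markers, Chrna1 of 9 skeletal muscle markers (2.14 ± 0.44, lost without Tet2-WT replicate 2 (0.0931)) and Nes of 20 neural markers (0.55 ± 0.14, lost without Tet2-WT replicates 1 or 2 (0.205, 0.128) or Tet2-E replicates 2, 100 or 250 (0.0649, 0.0927, 0.0969)), and Gap43 was lower of the neural markers (-1.43 ± 0.35, lost without Tet2-WT replicates 2 or 250 (0.18, 0.0796) or Tet2-E replicates 1, 2 or 250 (0.0623, 0.0685, 0.06)). Gata6 was lower of 14 extraembryonic and germ-layer markers (-0.57 ± 0.14, lost without Tet2-WT replicates 1 or 2 (0.15, 0.0926) or Tet2-E replicates 2, 100 or 250 (0.0617, 0.0529, 0.0813)). Of 12 erythroid markers 2 could be tested, and the embryonic globin gene Hbb-y was higher, at 3.7995, 3.39 and 2.82 CPM with Tet2-WT and 1.83, 2.21, 1.23 and 1.73 CPM with Tet2-E (0.96 ± 0.21, lost without Tet2-WT replicates 1 or 2 (0.105, 0.0815)). Of 4 sex-linked genes tested 0 passed in edgeR, 0 had an unadjusted p under 0.05 and DESeq2 called 0.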
